A study of Homo sapiens with 12 samples.

Results

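The HOX cluster genes were followed through the differentiation of H1 cells toward blood. HOX genes encode homeodomain transcription factors and lie in the HOXA, HOXB, HOXC and HOXD clusters, on chromosomes 7, 17, 12 and 2. The members were the 38 protein-coding HOX genes of a fixed list, taken by symbol from a table of 56593 distinct symbols, with 10 in HOXA, 10 in HOXB, 9 in HOXC and 9 in HOXD, and antisense genes were left aside. Each symbol stood on a single line of the table. H1 is an established human embryonic stem cell line, and no population carried a transgene or a knockout. Undifferentiated H1 cells were compared with APLNR+ mesoderm cells at day 2, after culture with activin A and BMP4, and with CD31+CD34+ hemogenic endothelial progenitors (HEPs) at day 5 and CD43+ hematopoietic progenitor cells (HPCs) at day 8, both after a further phase with VEGF and bFGF. The 3 differentiated populations were sorted by these surface proteins. Every population was represented by 3 libraries, all from 1 cell line, and the labels do not tie them to separate cultures. The study's methods speak of independent experiments for its analyses in general, without naming these libraries, so the p values measure the spread between them, which may be technical.

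Within a cluster, HOX genes are numbered by paralog group from the 3′ end (group 1) to the 5′ end (group 13). In the embryo they are switched on in that order, anterior genes first, a property called collinearity, and the combination of active HOX genes gives cells their position along the body axis. In blood formation, HOX proteins act together with cofactors of the PBX and MEIS families, and HOXA and HOXB genes of the middle groups are known from hematopoietic stem and progenitor cells. The HOX state of blood cells made from pluripotent stem cells is therefore often examined.

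Values are FPKM, fragment counts relative to transcript length and to the mapped fragments of the library, so that levels of different genes can be compared. FPKM carries no read totals, and the absolute depth is unknown. Relative depth was estimated from the most frequent ratio to CD43+ replicate 3, over genes between 0.0001 and 0.2 FPKM in both libraries. It ranged from 0.554 to 1.27 times that of CD43+ replicate 3. By this indirect estimate, replicate 1 was the shallowest library of each population. Summed FPKM ranged from 567793 to 1564449 per library, of which small RNA genes held 10.4% to 66.2%. That share differed between populations, with 57.0% to 58.6% in H1 and 15.4% to 20.0% in CD43+ libraries. Markers of each population were read beside its label, with lists that include the sorted antigens APLNR, PECAM1 (CD31), CD34 and SPN (CD43). A limit of 1 FPKM separates the populations only weakly. It was also reached by 5 of 6 pluripotency markers in each differentiated population and by 6 of 6 endothelial markers in CD43+ cells. All 6 pluripotency markers had a mean of at least 1 FPKM in H1, as did 6 of 6 mesoderm markers at day 2, 6 of 6 endothelial markers at day 5 and 5 of 6 blood markers at day 8, the exception being PTPRC (CD45), at 0.0695, 0.521 and 0 FPKM in the CD43+ libraries.

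A single cluster carried nearly the whole HOX signal. Of the 38 members, 8 reached 1 FPKM in at least 3 libraries, the limit for testing, and these were the unbroken run HOXB2 to HOXB9. The other 30 members did not exceed 0.393 FPKM in any library. The summed FPKM of the 10 HOXB members was 0.343, 0.183 and 0.0341 in H1, 8.76, 8.83 and 9.27 at day 2, 37.1, 44.0 and 40.7 at day 5 and 29.7, 35.7 and 34.8 at day 8. The HOXB cluster was thus near 0 before differentiation, clearly present at day 2, and highest in the HEPs. In bulk samples such as these, fewer cells of a type and less RNA per cell cannot be told apart. Summed HOXA levels were 0.252 ± 0.0161, 0.373 ± 0.134 and 0.655 ± 0.149 FPKM in APLNR+, CD31+CD34+ and CD43+ cells (SD, n = 3). The HOXC sum did not exceed 0.366 FPKM in any library, nor the HOXD sum 0.271 FPKM. Of the summed FPKM of the 38 members, HOXB genes made up 94.3% to 98.9% in the 9 libraries of differentiated cells.

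**Figure D1:**
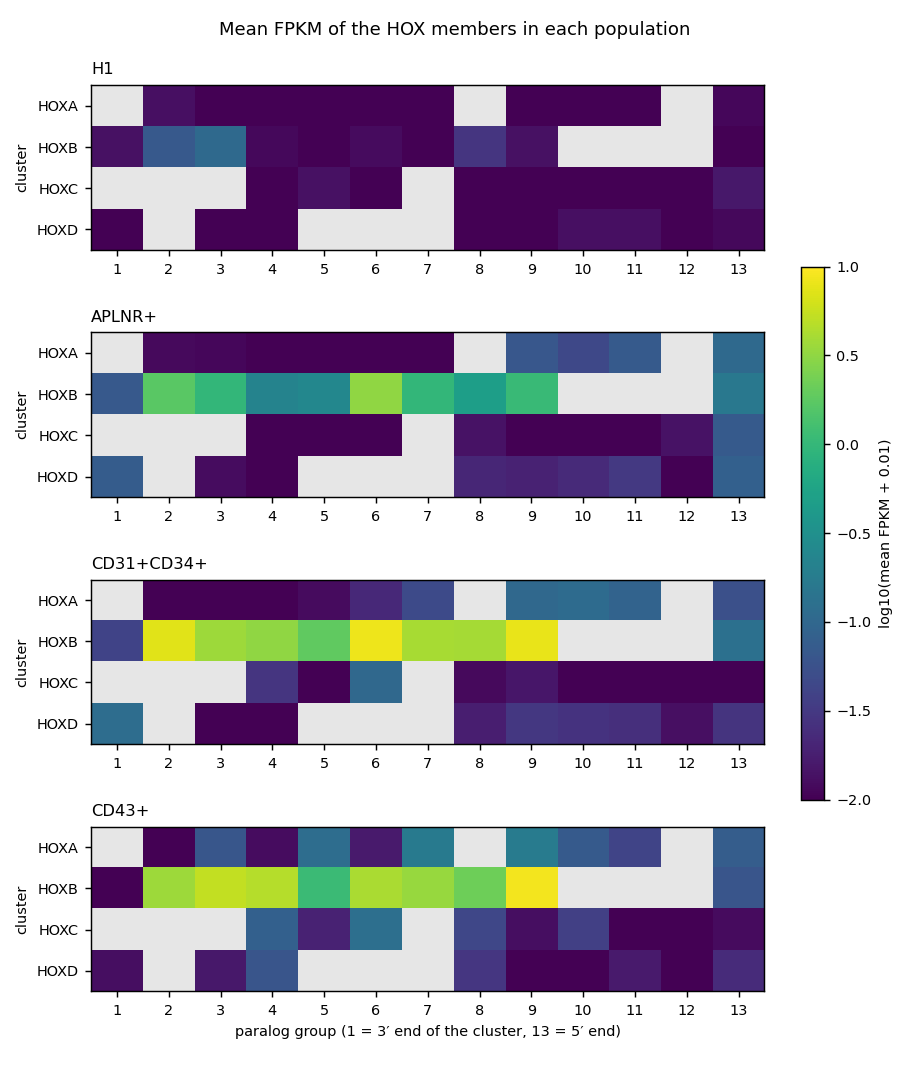
Mean FPKM of each HOX member as log10(mean FPKM + 0.01), by cluster (rows) and paralog group (columns), in a panel for each population; grey marks positions with no gene in the list. The bright run is HOXB2 to HOXB9, near 0 in H1 and brightest in CD31+CD34+ and CD43+ cells. Within each differentiated population, every gene of the other rows is darker than every gene of the run.

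The anterior members of the run were HOXB2 and HOXB3, which pattern the hindbrain in the embryo. HOXB2 had 0.0408, 0.136 and 0 FPKM in the H1 libraries, 1.76, 1.54 and 1.73 FPKM in the APLNR+ libraries, 8.48, 6.94 and 6.43 FPKM in the CD31+CD34+ libraries and 3.34, 3.87 and 3.70 FPKM in the CD43+ libraries. No populations overlapped, and the order was H1, APLNR+, CD43+, CD31+CD34+. HOXB3 had 0.234, 0.0239 and 0.0341 FPKM in the H1 libraries, 0.795, 1.04 and 1.08 FPKM in the APLNR+ libraries, 3.24, 4.10 and 3.65 FPKM in the CD31+CD34+ libraries and 4.41, 5.69 and 5.57 FPKM in the CD43+ libraries. HOXB3 therefore had its highest values in the last population, where the HOXB2 mean was 49.9% of that in CD31+CD34+ cells. Replicate 1 gave the highest H1 value of HOXB3, and it was also the shallowest H1 library.

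HOXB4 and HOXB5 are known from blood stem cells, HOXB4 because its forced expression expands them and HOXB5 as a marker of long-term stem cells in the mouse. HOXB4 had 0.00466, 0 and 0 FPKM in the H1 libraries, 0.138, 0.257 and 0.236 FPKM in the APLNR+ libraries, 2.57, 3.68 and 3.23 FPKM in the CD31+CD34+ libraries and 4.41, 4.73 and 4.86 FPKM in the CD43+ libraries. Its APLNR+ mean was 6.65% of its CD31+CD34+ mean, the lowest such share of the 8 genes. HOXB5, listed at 0 in all H1 libraries, had 0.210, 0.190 and 0.304 FPKM in the APLNR+ libraries, 1.81, 1.70 and 1.97 FPKM in the CD31+CD34+ libraries and 1.22, 1.08 and 0.968 FPKM in the CD43+ libraries. HOXB5 was the lowest gene of the run in all CD31+CD34+ and CD43+ libraries. At day 2 both genes lay below their neighbours HOXB3 and HOXB6 in every library.

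HOXB6, expressed in lateral plate mesoderm of the embryo and in erythroid progenitors, was the earliest strong member. It had 0, 0.00705 and 0 FPKM in the H1 libraries and 3.50, 2.82 and 3.12 FPKM in the APLNR+ libraries, where it was the highest HOX member in each library. In CD31+CD34+ cells it had 8.35, 9.13 and 7.92 FPKM and in CD43+ cells 4.02, 5.12 and 3.34 FPKM. Among the 8 genes, HOXB6 had the largest part of its CD31+CD34+ level already in place at day 2, 37.2%. HOXB7, listed at 0 in H1, had 1.04, 1.13 and 0.743 FPKM in the APLNR+ libraries, 3.80, 4.48 and 3.99 FPKM in the CD31+CD34+ libraries and 2.79, 3.38 and 4.25 FPKM in the CD43+ libraries, and the values of the last populations overlapped.

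HOXB8, whose forced expression holds myeloid progenitors in an immature state, had 0.0564, 0 and 0 FPKM in the H1 libraries, 0.309, 0.537 and 0.556 FPKM in the APLNR+ libraries, 3.59, 4.14 and 4.03 FPKM in the CD31+CD34+ libraries and 2.63, 1.82 and 2.03 FPKM in the CD43+ libraries. HOXB9, which helps to pattern the thoracic skeleton, had 0.00698, 0.00425 and 0 FPKM in the H1 libraries, 0.814, 1.08 and 1.29 FPKM in the APLNR+ libraries, 5.11, 9.68 and 9.33 FPKM in the CD31+CD34+ libraries and 6.86, 9.92 and 10.003 FPKM in the CD43+ libraries. HOXB9 was the highest HOX member in every CD43+ library and in CD31+CD34+ replicates 2 and 3. In CD31+CD34+ replicate 1, the shallowest library of the series by the estimate above, HOXB9 stood at 5.11 FPKM, behind HOXB2 and HOXB6. Small RNA genes held 57.2% of the summed FPKM of that library, against 10.4% and 24.7% in replicates 2 and 3. Whether either trait bears on the HOXB9 value was not tested.

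**Figure D2:**
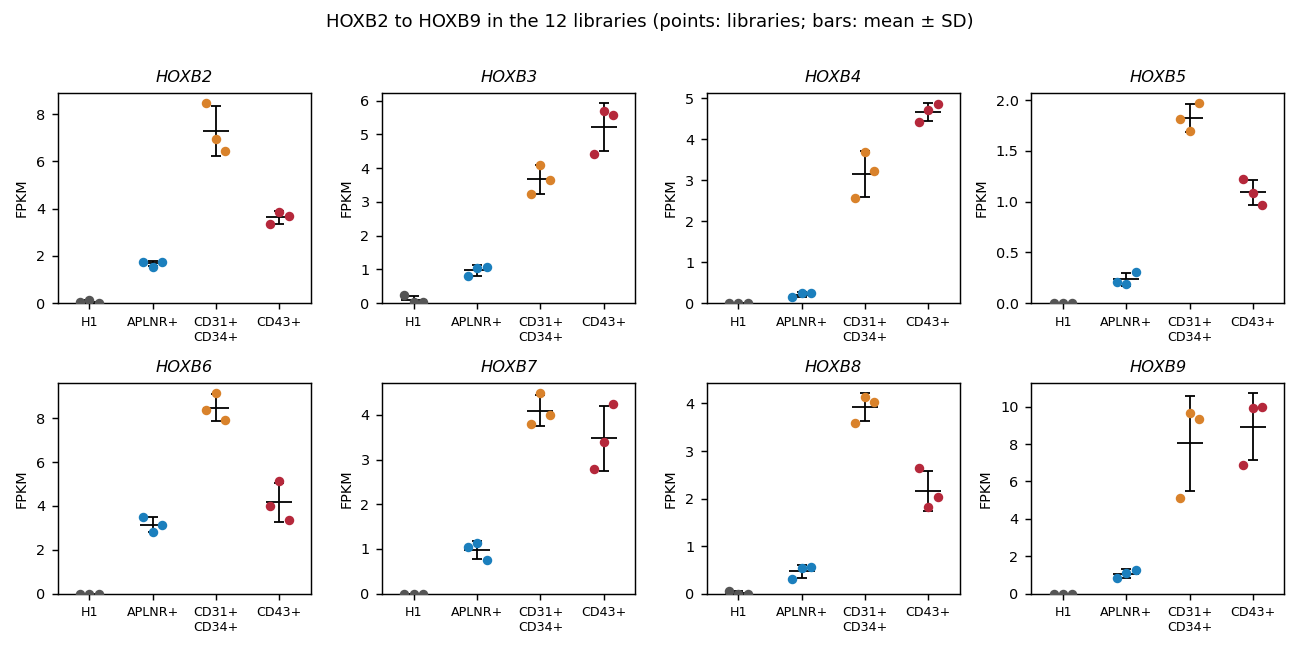
FPKM (vertical axes, linear) of HOXB2 to HOXB9 in the 4 populations; points are libraries, horizontal bars the means and error bars the SD of 3 libraries. HOXB2, HOXB5, HOXB6 and HOXB8 are highest in CD31+CD34+ cells, with the CD43+ points below, whereas the CD43+ points of HOXB3 and HOXB4 lie above those of CD31+CD34+ cells.

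The first comparison asks which HOX genes are already active in mesoderm. From H1 to APLNR+ cells, HOXB6, HOXB2 and HOXB9 rose, by 2.05 ± 0.12, 1.34 ± 0.11 and 1.03 ± 0.20 on the log2(FPKM + 1) scale (SE), with limma adjusted p of 3.89e-08, 5.28e-07 and 0.000894. Calls required an adjusted p below 0.05 together with a 2-fold change on that scale, which understates the change of low genes. Of all 14840 genes tested, 8.3% were called higher and 7.62% lower. No member reached 1 FPKM in the H1 libraries, so a member could pass the filter only through differentiated cells and had to differ from H1. Without a filter the same number, 3 of 38 members, was called higher, where 2.17% of all symbols were. HOXB7, HOXB3, HOXB8, HOXB5 and HOXB4 had changes of 0.97, 0.85, 0.52, 0.30 and 0.27 and adjusted p from 2.97e-05 to 0.0376, under the 2-fold limit. With no minimum change all 8 were higher, as were 22.7% of tested genes, and with a pseudocount of 0.1 in place of 1 all 8 were called. The APLNR+ and H1 libraries did not overlap for any of the 8 genes, and 26.1% of tested genes were likewise higher without overlap. The call of HOXB9 was lost without APLNR+ replicate 3 (0.95), with upper-quartile scaling (0.98) and with quantile normalization (0.95), and HOXB7 was called without APLNR+ replicate 3 (1.06).

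At the step to HEPs every gene of the run passed the 2-fold limit. From APLNR+ to CD31+CD34+ cells all 8 genes were called higher in the limma fit, 8 of 8 tested and 8 of 38 members without a filter, where 12.5% of tested genes and 3.26% of all symbols were called higher and 17.1% of tested genes lower. The filter bears on this step too. HOXB4, HOXB5 and HOXB8 reached 1 FPKM in no APLNR+ library, and HOXB3, HOXB7 and HOXB9 in too few to pass. All of these passed only with the help of the later populations, where they were higher. Only HOXB2 and HOXB6 would have passed on the APLNR+ libraries alone. HOXB9 rose by 2.10 ± 0.20 (adjusted p 1.6e-06), HOXB4 by 1.77 ± 0.10 (2e-08), HOXB8 by 1.75 ± 0.11 (4.34e-08) and HOXB2 by 1.62 ± 0.11 (6.31e-08). HOXB7, HOXB3, HOXB5 and HOXB6 rose by 1.37, 1.24, 1.20 and 1.19, with adjusted p from 6.65e-08 to 2.99e-06. In mean FPKM, HOXB4 was 15.04-fold higher, HOXB8 8.39-fold, HOXB5 7.79-fold and HOXB9 7.58-fold, and HOXB6, which had started from the highest level, 2.69-fold. The median log2 change of the 8 genes was 1.50, against -0.01 over all genes tested, a contrast that the filter favours. These calls held in each fit that left out a library, and HOXB6 missed the limit (1.00) when libraries were scaled to their protein-coding FPKM.

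At the step from HEPs to HPCs, the genes of the run differed in direction. In the limma fit 0 of the 8 genes reached the 2-fold limit, while 5.58% of tested genes were called higher and 8.79% lower. Without a filter 0 of 38 members were called, against 1.45% and 2.28% of all symbols. An unadjusted p under 0.05 was found for 6 of the 8, and the same 6 had an adjusted p under 0.05, 2 of them higher and 4 lower, where 25.9% and 27.8% of tested genes were. HOXB6, HOXB2, HOXB8 and HOXB5 had lower values in CD43+ cells, with log2 changes of -0.89 ± 0.12, -0.83 ± 0.11, -0.65 ± 0.11 and -0.44 ± 0.08 and adjusted p of 7.27e-05, 4.01e-05, 0.000372 and 0.000594. Their mean FPKM in the CD43+ libraries was 49.1%, 49.9%, 55.1% and 59.7% of that in CD31+CD34+ cells. HOXB4 and HOXB3 had higher values, with changes of 0.45 ± 0.10 and 0.41 ± 0.12 (adjusted p 0.00258 and 0.0123), and CD43+ means that were 148% and 143% of those in CD31+CD34+ cells. For each of these 6 genes the CD43+ and CD31+CD34+ libraries did not overlap, and 28% of tested genes were higher and 30% lower without overlap. HOXB7 (-0.20, adjusted p 0.195) and HOXB9 (0.16, adjusted p 0.524) overlapped between the populations. HOXB9 depended on CD31+CD34+ replicate 1, and its change was -0.10 without that library. HOXB6 was called lower without CD43+ replicate 2 (-1.02) and with a pseudocount of 0.1 (-1.03).

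From H1 to CD43+ cells all 8 genes were called higher, again after a filter that no member could pass through H1, and 14.6% of tested genes were, with 22.5% called lower. Without a filter 8 of 38 members were called, against 3.83% of all symbols. HOXB9 had the largest change, 3.29 ± 0.20 (adjusted p 1.85e-08), followed by HOXB3 with 2.50 ± 0.12 and HOXB4 with 2.50 ± 0.10 (2.18e-09 and 4.91e-10). HOXB5 had the smallest, 1.06 ± 0.08 (1.13e-07), and it missed the 2-fold limit when libraries were scaled to their protein-coding FPKM (0.98). With 3 libraries a side, the smallest two-sided p of an exact permutation test is 0.1, so single-gene calls rest on the spread that limma shares over genes.

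**Figure D3:**
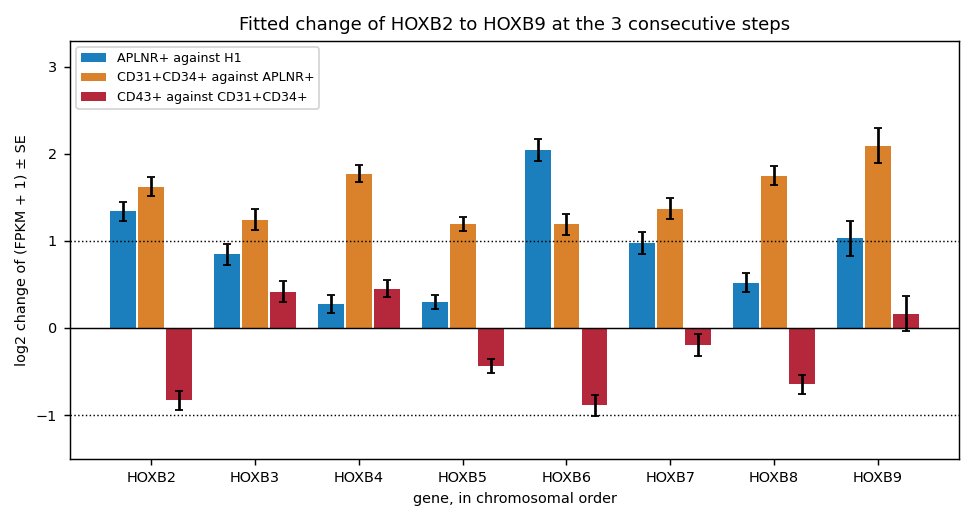
Fitted log2 change of (FPKM + 1) ± SE from limma for HOXB2 to HOXB9, in chromosomal order, at the 3 consecutive steps; dotted lines mark a 2-fold change. All 8 bars of the middle step exceed the limit, and the bars of the last step lie between -0.89 and 0.45, with HOXB3 and HOXB4 above 0 beside HOXB2, HOXB5 and HOXB6 below it.

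The order of these events along the chromosome was not a simple gradient. Across the 8 genes, Spearman's rho between paralog number and mean FPKM was 0.07 at day 2, 0.33 at day 5 and -0.02 at day 8, and between paralog number and the day 2 share of the CD31+CD34+ level it was -0.14. These are descriptions over 8 neighbouring genes measured in the same libraries. The day 2 share was 23.0%, 26.5%, 6.65%, 12.8%, 37.2%, 23.7%, 11.9% and 13.2% from HOXB2 to HOXB9, so the lowest and the highest share were a single gene apart. HOXB3 and HOXB4, which were highest in CD43+ cells, lie between genes that were highest in CD31+CD34+ cells.

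The make-up of the run changed with each population. HOXB6 held 36.1% ± 4.24 of the summed FPKM of the 8 genes at day 2, 21.0% ± 1.54 at day 5 and 12.5% ± 2.54 at day 8 (SD, n = 3). HOXB4 held 2.40% ± 0.710, 7.78% ± 0.738 and 14.05% ± 0.798 in the same order, and HOXB9 12.1% ± 2.39, 19.6% ± 5.05 and 26.6% ± 3.05. The share was thus lower with each step for HOXB6 and higher for HOXB4. Such shares, and ratios of genes within a library, do not depend on how libraries were scaled. The ratio of HOXB4 to HOXB6 was 0.0394, 0.0908 and 0.0757 in APLNR+ libraries, 0.308, 0.403 and 0.408 in CD31+CD34+ libraries and 1.10, 0.923 and 1.45 in CD43+ libraries. HOXB6 thus exceeded HOXB4 by over 10-fold in each mesoderm library, and the genes were about level in HPCs. The log2 ratio was higher by 2.52 at the step to CD31+CD34+ cells and by 1.62 at the step to CD43+ cells, each with an exact two-sided permutation p of 0.1, the smallest possible. The ratio of HOXB3 to HOXB2 was 0.582 ± 0.115 at day 2, 0.514 ± 0.115 at day 5 and 1.43 ± 0.0987 at day 8, with exact p of 0.5 and 0.1 at the 2 steps. The ratio of HOXB9 to HOXB8 was 2.32 ± 0.310, 2.02 ± 0.521 and 4.33 ± 1.52 (exact p 0.6 and 0.1), and that of HOXB9 to HOXB6 was 0.343 ± 0.0963, 0.95 ± 0.298 and 2.21 ± 0.688 (exact p 0.1 at each). In all, 4 ratios were tested at 2 steps, chosen after their values were seen, and the lowest of the 8 p values after Benjamini-Hochberg adjustment was 0.133.

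**Figure D4:**
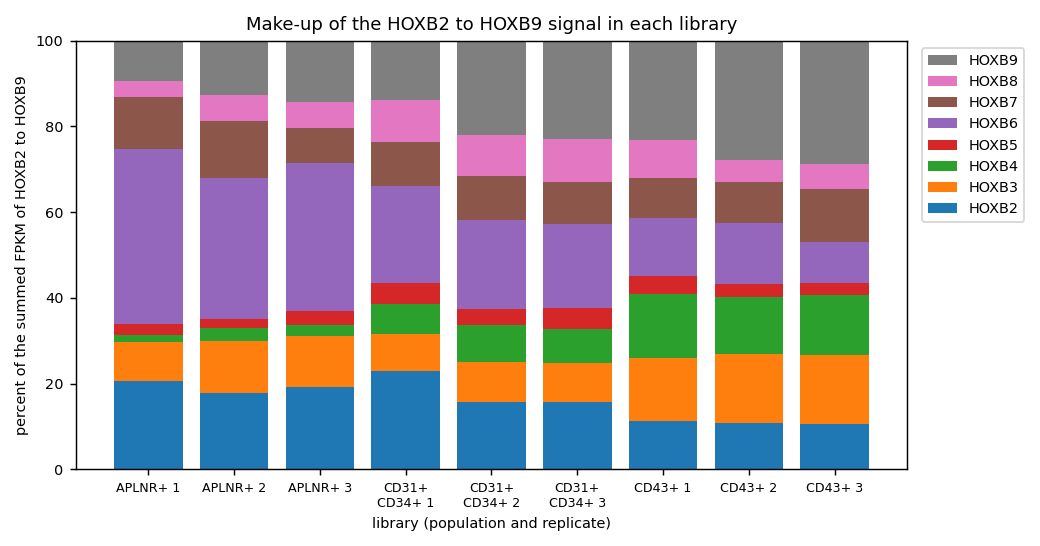
Percent of the summed FPKM of HOXB2 to HOXB9 held by each gene in the 9 libraries of differentiated cells, stacked in chromosomal order. The HOXB6 band narrows from APLNR+ to CD43+ libraries while the mean HOXB4 and HOXB9 bands widen, and CD31+CD34+ replicate 1 has a smaller HOXB9 band than replicates 2 and 3.

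Some of these genes share sequence, which limits how well their reads can be told apart. In GENCODE release 29, 17.1% of the exon bases of HOXB4 also belong to other genes on the same strand, among them HOXB3, and 16.6% of those of HOXB6 belong to HOXB3. A further 16.3% of the HOXB6 exon bases are covered on the opposite strand by HOXB-AS3, and no source says whether reads were assigned by strand. HOXB-AS3 itself had 1.78 ± 0.430, 3.57 ± 0.449 and 6.32 ± 1.46 FPKM in APLNR+, CD31+CD34+ and CD43+ cells. The transcript AC103702.1, which overlaps HOXB4, stayed at means of 0.0516, 0.255 and 0.620 FPKM in the same order. HOXB7, HOXB8 and HOXB9 share no exon base with another gene, and HOXB2 and HOXB5 share 3.72% and 3.58%, on the opposite strand. HOXB3 shares 7.94% of its exon bases with HOXB4 and HOXB6 on the same strand and 5.27% on the opposite strand. Counted as stretches of 50 bases found in the transcripts of another gene, 12.4% of HOXB4, 14.6% of HOXB6, 5.52% of HOXB3 and 1.63% of HOXB7 were shared. The part of shared reads in the values was not tested.

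The ends of the HOXB cluster differed from its middle. HOXB1, the neighbour of HOXB2, had 0.0339, 0.0878 and 0.0564 FPKM in the APLNR+ libraries, 0.0345, 0.0497 and 0.00566 FPKM in the CD31+CD34+ libraries and was listed at 0 in all CD43+ libraries. HOXB13, set apart from HOXB9 at the other end, had 0.160, 0.141 and 0.147 FPKM in the APLNR+ libraries, 0.108, 0.0874 and 0.156 FPKM in the CD31+CD34+ libraries and 0.0375, 0.0534 and 0.0663 FPKM in the CD43+ libraries, and was listed at 0 in H1. Both outer genes had their highest mean at day 2, unlike the 8 genes between them. Between HOXB9 and HOXB13 lie PRAC1 and PRAC2, small genes known from the hindgut and prostate. PRAC1 rose from 0.0244 ± 0.0423 FPKM in H1 to 5.51 ± 0.403 FPKM in the APLNR+ libraries (log2 change 2.67, limma adjusted p 2.43e-08) and fell to 1.79 ± 0.567 FPKM in the CD31+CD34+ libraries (-1.24, 1.3e-05). Beyond the cluster, SKAP1, next to HOXB1, had means of 0.0183, 0.0771, 1.60 and 1.87 FPKM along the series, and TTLL6, next to HOXB13, had 1.10, 0.132, 0.0494 and 0.0781 FPKM. These flanking genes were chosen after their values were seen.

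Outside HOXB, the members were at or near 0, and the few values above it were grouped by position, a grouping chosen after their values were seen. From H1 to APLNR+ cells, the libraries did not overlap for 6 of the 14 members of groups 9 to 13 outside HOXB, HOXA9, HOXA10, HOXA11, HOXA13, HOXC13 and HOXD13, all higher in APLNR+ cells. The same held for 0 of 10 members of groups 4 to 8 and for 1 of 4 of groups 1 to 3, HOXD1. Over all 30 members that missed the filter it held for 9, against 10.5% of the 19276 genes that missed the filter and were not at 0 throughout. From APLNR+ to CD31+CD34+ cells 1 of the 30 was higher and 3 were lower without overlap (7.12% and 14.3% of such genes), from CD31+CD34+ to CD43+ cells 4 were higher and 4 lower (7.25% and 7.45%), and from H1 to CD43+ cells 10 were higher (9.1%). At these levels the genes were not tested.

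The group 13 genes lay above H1 in every APLNR+ library, in all 4 clusters. Of these, HOXA13 and HOXD13 pattern the hindgut, the genital tract and the ends of the limbs. HOXA13 had 0.0760, 0.109 and 0.105 FPKM in the APLNR+ libraries and 0.0599, 0.0239 and 0.0462 FPKM in the CD31+CD34+ libraries. HOXD13 had 0.0982, 0.0585 and 0.0639 FPKM and then 0.0204, 0.0133 and 0.0201 FPKM. HOXC13 had 0.0762, 0.0178 and 0.0879 FPKM and was then listed at 0 in all CD31+CD34+ libraries. The CD31+CD34+ libraries of these genes lay below those of APLNR+ cells, which makes 3 of the 30 low members against the 14.3% of such genes given above. In the CD43+ libraries HOXA13 had 0.0537, 0.0534 and 0.0933 FPKM, overlapping with both earlier populations, and HOXC13 and HOXD13 did not exceed 0.0226 FPKM.

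Promoter windows from 250 before to 50 after a transcript start were available from RefSeq (GRCh38.p14) for 20 members in 27 windows. HOXB2 to HOXB9 were not among them and their promoters are not analysed here. The windows of HOXB1, HOXA13, HOXD11 and HOXD13 are shown because these genes had their highest mean at day 2. So did HOXB13, HOXC12 and HOXC13, whose windows are not analysed here. HOXD11 had 2.57e-12, 0.0387 and 0.0269 FPKM in the APLNR+ libraries and 0, 0.0261 and 0.0198 FPKM in the CD31+CD34+ libraries. The APLNR+ and CD31+CD34+ libraries overlapped for HOXD11, HOXB1 and HOXB13. HOXC12 rested on APLNR+ replicate 2 alone, at 0.0126 FPKM. Capitals mark matches, on either strand, to TGATNNAT (a site bound by HOX and PBX proteins together), CCAAT (the box bound by NF-Y), TATAAA (the TATA box) or TTTATG (a site of the CDX type). The sequences run 5′ to 3′ on the strand of the gene, HOXB1 at chr17:48530962-48531261 (minus strand), HOXA13 at chr7:27200042-27200341 (minus strand), HOXD11 at chr2:176107030-176107329 (plus strand) and HOXD13 at chr2:176092471-176092770 (plus strand).
HOXB1: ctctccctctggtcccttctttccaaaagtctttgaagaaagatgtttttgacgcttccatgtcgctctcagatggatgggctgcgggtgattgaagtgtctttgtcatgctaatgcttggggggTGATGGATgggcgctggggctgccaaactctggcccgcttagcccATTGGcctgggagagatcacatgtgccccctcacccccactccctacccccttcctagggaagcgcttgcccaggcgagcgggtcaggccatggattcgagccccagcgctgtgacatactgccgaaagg
HOXA13: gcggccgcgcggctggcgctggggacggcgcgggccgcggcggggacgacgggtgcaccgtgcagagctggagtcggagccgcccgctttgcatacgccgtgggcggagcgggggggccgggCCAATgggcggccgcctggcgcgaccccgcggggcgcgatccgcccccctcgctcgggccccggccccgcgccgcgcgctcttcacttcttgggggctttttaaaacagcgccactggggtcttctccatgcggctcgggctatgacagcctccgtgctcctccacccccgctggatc
HOXD11: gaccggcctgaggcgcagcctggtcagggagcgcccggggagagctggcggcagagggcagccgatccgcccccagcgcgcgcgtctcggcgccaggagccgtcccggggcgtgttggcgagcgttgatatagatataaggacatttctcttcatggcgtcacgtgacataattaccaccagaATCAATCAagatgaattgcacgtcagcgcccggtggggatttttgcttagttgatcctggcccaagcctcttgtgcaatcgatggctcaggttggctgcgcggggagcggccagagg
HOXD13: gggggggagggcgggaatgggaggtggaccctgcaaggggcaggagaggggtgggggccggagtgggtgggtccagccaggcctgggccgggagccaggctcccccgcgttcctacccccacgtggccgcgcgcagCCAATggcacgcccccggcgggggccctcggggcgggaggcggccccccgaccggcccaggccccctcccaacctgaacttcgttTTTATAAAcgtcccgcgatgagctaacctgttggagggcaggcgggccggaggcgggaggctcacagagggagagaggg
The windows of HOXB1, HOXA13 and HOXD13 held 1 CCAAT match each, and that of HOXD11 none. HOXB1 and HOXD11 held 1 match to TGATNNAT each, and HOXD13 had 2 overlapping matches to TATAAA, 1 on each strand. CCAAT was found in 18 of the 27 member windows and in 34.6% of 35089 windows of other genes. TGATNNAT was found in 3 member windows and 7.4% of the others, TATAAA in 5 and 11.5%, and TTTATG in 3 and 10.6%. Several windows belong to the same gene, and a match is a description of the letters alone.

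Other HOXA and HOXC genes had their highest values at days 5 and 8. HOXA9, a regulator of blood stem cells, was the highest HOXA gene by mean in CD43+ cells, with 0.169, 0.143 and 0.190 FPKM there, 0.133, 0.0842 and 0.0662 FPKM in the CD31+CD34+ libraries and 0.0391, 0.0797 and 0.0482 FPKM in the APLNR+ libraries. Its CD43+ values lay above all others, at a level about 50-fold under that of HOXB9. HOXA5 and HOXA7 rested on a single library each, HOXA5 with 0.286 FPKM in CD43+ replicate 1 against 0.00764 and 0.0317 FPKM, and HOXA7 with 0.393 FPKM in CD43+ replicate 2 against 0.0424 and 0.0380 FPKM. HOXA10 had 0.0799, 0.186 and 0.0407 FPKM in the CD31+CD34+ libraries and 0.0639, 0.0809 and 0.0349 FPKM in the CD43+ libraries, so the populations overlapped. HOXA11 had 0.0645, 0.120 and 0.0584 FPKM in the CD31+CD34+ libraries and lower values, 0, 0.0473 and 0.0475 FPKM, in the CD43+ libraries. HOXA2, HOXA3, HOXA4 and HOXA6 stayed under 0.1 FPKM in every library.

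In HOXC, HOXC6 was highest. It was listed at 0 in H1 and APLNR+ libraries, with 0.146, 0.0711 and 0.0607 FPKM in the CD31+CD34+ libraries and 0.164, 0.0651 and 0.112 FPKM in the CD43+ libraries. HOXC4 reached 0.119, 0.0380 and 0.0631 FPKM in the CD43+ libraries. HOXC4 and HOXC5 have the same promoter window, hence the same annotated start, and their split values are uncertain. HOXC5, HOXC8, HOXC9, HOXC10, HOXC12 and HOXC13 stayed under 0.1 FPKM, and HOXC11 was listed at 0 in all 12 libraries. In HOXD, HOXD1 had 0.0696, 0.0563 and 0.0684 FPKM in the APLNR+ libraries, 0.176, 0.0459 and 0.0987 FPKM in the CD31+CD34+ libraries and 0.00869, 0 and 0 FPKM in the CD43+ libraries. HOXD1 was thus near 0 again in CD43+ cells, and the other 8 HOXD members stayed under 0.1 FPKM. A value listed as 0 may be a failed estimate in a table of this kind, and at unknown depth it does not show that a gene was silent.

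HOX proteins bind DNA with partners, and the genes of those partners and of upstream regulators were taken as a second list of 22 genes, of which 19 were tested. In the order of the 3 steps, 5, 4 and 1 were called higher and 2, 3 and 2 lower, where 8.3%, 12.5% and 5.58% of all tested genes were called higher and 7.62%, 17.1% and 8.79% lower. MEIS1, a cofactor needed for blood stem cells and megakaryocytes, had 0.218, 0.134 and 0.174 FPKM in the H1 libraries, 3.18, 3.72 and 2.52 FPKM in the APLNR+ libraries, 14.7, 19.5 and 17.2 FPKM in the CD31+CD34+ libraries and 41.1, 61.1 and 52.3 FPKM in the CD43+ libraries. It rose at each step, by 1.81 ± 0.15, 2.13 ± 0.15 and 1.53 ± 0.15 (limma adjusted p 9.79e-07, 1.44e-07 and 5.17e-06). MEIS3, another member of that family, had 4.39 ± 0.849, 24.8 ± 2.96, 61.0 ± 4.56 and 5.29 ± 0.758 FPKM along the series, and it rose by 2.26 and 1.27 at the first steps and fell by 3.31 at the last (4.33e-08, 4.53e-06 and 2.48e-09). MEIS2 rose by 2.05 at the middle step (4.48e-06), from 1.37 ± 0.194 to 9.10 ± 2.82 FPKM, and averaged 12.995 ± 3.47 FPKM in the CD43+ libraries. The MEIS genes thus differed from one another in CD43+ cells, where MEIS1 was at its highest and MEIS3 back at about its H1 level.

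EVX1, a homeobox gene at the 5′ end of the HOXA cluster beyond HOXA13, had 3.71, 3.08 and 2.88 FPKM in the APLNR+ libraries, 4.78, 4.61 and 4.69 FPKM in the CD31+CD34+ libraries and 0.490, 0.377 and 0.224 FPKM in the CD43+ libraries. It rose by 2.04 from H1 (limma adjusted p 6.15e-09) and fell by 2.07 at the last step (8.49e-09), and its means at days 2 and 5 were over 20-fold those of HOXA13. The CDX factors, known activators of HOX genes, are given because of that role, after their values were seen. CDX2 had 0.0392 ± 0.0469, 0.674 ± 0.352, 2.36 ± 0.178 and 0.767 ± 0.468 FPKM along the series and was called higher at the middle step (1.03, adjusted p 0.000207). CDX1 had 0.0157 ± 0.0187, 0.786 ± 0.129, 0.975 ± 0.137 and 1.48 ± 0.310 FPKM and was called in none of the 3 steps. CDX4, which missed the filter, had means of 0.651, 0.204, 0.0285 and 0.00284 FPKM. The CDX genes thus had their highest means in different populations, CDX4 in H1, CDX2 in CD31+CD34+ and CDX1 in CD43+ cells. Among the genes that maintain HOX transcription, PSIP1, which tethers the KMT2A complex to chromatin, fell by 1.92 and 1.99 at the first steps, from 112 ± 7.06 to 29.1 ± 4.09 and 6.63 ± 1.53 FPKM (5.08e-06 and 2.07e-06). GMNN, a replication inhibitor that also binds HOX proteins, fell by 1.59 at the middle step (9.13e-09), from 29.7 ± 1.55 to 9.23 ± 0.425 FPKM. KMT2A itself, the histone methyltransferase that keeps HOX genes active, had means from 6.97 to 8.83 FPKM and was not called at any step. Others of this group went upward. KAT6A was called higher at the first step (1.04, limma adjusted p 2.09e-05). MEN1 and ASH2L rose by 0.91 and 0.90 at the middle step, under the 2-fold limit.

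**Figure D5:**
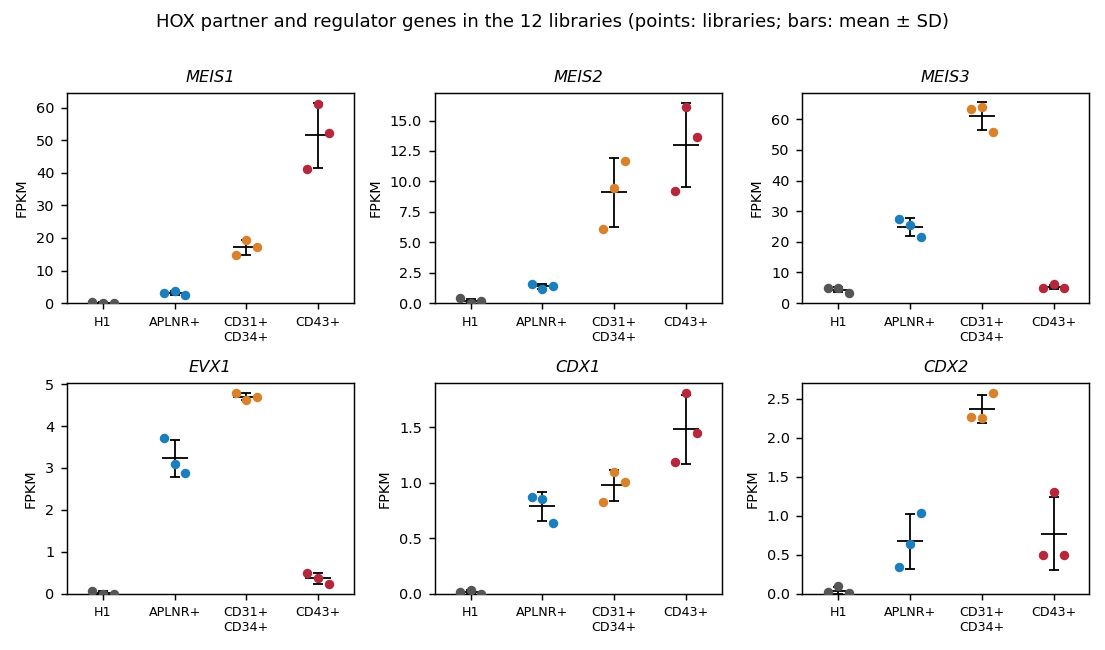
FPKM (vertical axes, linear) of 3 MEIS cofactor genes, EVX1, CDX1 and CDX2 in the 4 populations; points are libraries, horizontal bars means and error bars the SD of 3 libraries. MEIS1 climbs to between 41.1 and 61.1 FPKM in the CD43+ libraries, while MEIS3, EVX1 and CDX2 are highest in CD31+CD34+ cells.

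Noncoding and small genes of the clusters formed a further list of 19, of which 4 passed the filter, HOXB-AS1, HOXB-AS3, PRAC1 and PRAC2, all from the HOXB cluster. From H1 to APLNR+ cells HOXB-AS3, PRAC1 and PRAC2 were called higher, where 8.3% of all tested genes were. None of the 4 reached 1 FPKM in an H1 library, so they could pass the filter only through differentiated cells. HOXB-AS1, antisense to HOXB2, was listed at 0 in H1 and had 0.873 ± 0.0901, 2.50 ± 0.406 and 0.848 ± 0.109 FPKM in the later populations. Its mean was highest in CD31+CD34+ cells, as was that of HOXB2. It shares bases with HOXB2 and also with HOXB3, which was highest in CD43+ cells. HOTAIRM1, an RNA from the 3′ end of HOXA, had 0.753 ± 0.0959 FPKM in the APLNR+ libraries and 0.358 ± 0.0896 in CD31+CD34+ cells, above every HOXA member at day 2. Antisense values are uncertain because strand use is not stated.

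Each sorted population also held transcripts listed as markers of other cell types. The summed FPKM of 6 endothelial markers was 470.0 to 649 in CD31+CD34+ and 265 to 356 in CD43+ libraries, with all 6 at a mean of at least 1 FPKM in both. That of 6 blood markers was 29.8 to 39.9 in CD31+CD34+ and 732 to 799 in CD43+ libraries, and PTPRC was listed at 0 in all CD31+CD34+ libraries. The 6 pluripotency markers summed to 1958 to 2045 in H1, 618 to 695 in APLNR+, 329 to 403 in CD31+CD34+ and 152 to 177 in CD43+ libraries, where SOX2 was under 0.1 FPKM. Of 6 mesenchymal and muscle markers the sum was 423 to 566 in APLNR+, 369 to 445 in CD31+CD34+ and 118 to 144 in CD43+ libraries, with DCN under 0.1 FPKM in each population. The sum of 6 endoderm markers was 34.1 to 44.6 in CD31+CD34+ and 7.64 to 9.21 in CD43+ libraries, with ALB under 0.1 FPKM, and that of 6 neural markers did not exceed 2.19 in any library. The endothelial, mesenchymal and endoderm sums were lower in CD43+ than in CD31+CD34+ libraries, but the members of these lists differed in direction. In the limma fit 4 of 6 tested endothelial, 2 of 5 mesenchymal and 3 of 4 endoderm markers were called lower. ACTA2 (13.3 to 34.8 FPKM) and TTR (0.205 to 4.37 FPKM) were called higher. Of all tested genes 8.79% were called lower and 5.58% higher. PECAM1 (CD31) had 55.2 and 95.9 FPKM and COL3A1 24.2 and 44.2 FPKM, both under the 2-fold limit. TAGLN alone, with 274 and 15.7 FPKM, made up most of the difference in the mesenchymal sum. SOX17 alone, with 24.2 and 1.40 FPKM, made up most of that in the endoderm sum. The part of other cell types in the HOXB values was not tested.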

How the data were processed

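RNA-seq libraries from 12 samples were used, 3 each of H1, APLNR+, CD31+CD34+ and CD43+ cells, grouped by the sample titles. The authors deposited 1 table, in FPKM, with 12 columns matched to samples by title. The submitters' processing notes name hg19, BWA, Bowtie and RSEM with no role or version; annotation, strand and scaling are not given in the sources used here. The 1 line that held text was left out, and a symbol on several lines was represented by that of highest mean. FPKM values are not counts, so no count model was run.

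Values were transformed as log2(FPKM + 1), and the 14840 genes with at least 1 FPKM in at least 3 libraries were fitted with limma 3.58.1 in R 4.3.3 (4 populations, trend, no covariate), with Benjamini-Hochberg adjustment over all genes. In simulated data for APLNR+ against H1 with 14840 genes, 197 of 200 genes changed by 2 on the log2 scale were called and 2 unchanged genes. The members, lists and tests were chosen with earlier results of these data known. All members were named, and of the 22 partner genes up to 4 called genes per comparison, those with the largest change. The CDX genes, KMT2A, KAT6A, MEN1, ASH2L and the middle step of MEIS3 were added after their values were seen. Deviations of same-numbered libraries from the population mean were correlated, and the rule for pairing was that every pair exceed 0.1. The values were 0.192 to 0.392 between CD43+ and CD31+CD34+ and 0.174 to 0.386 between CD43+ and H1, which met the rule. All exceeded those between differently numbered libraries, but for replicate 3 narrowly (0.192 against 0.161 and 0.174 against 0.134). The numbers thus do not establish a pairing, and the labels state none. For the other comparisons the rule was not met (lowest -0.0214 and 0.0254). Sequences are from RefSeq GRCh38.p14 and exon overlaps from GENCODE release 29, matched by symbol. Python 3.11.15 drew the figures.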

Additional observations from a re-analysis of the deposited data

How the results depend on the processing

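The number of HOX genes called was within 1.5 times of the reported one under most alternatives. From H1 to APLNR+ cells it was 3, and 8 with a pseudocount of 0.1 or without a minimum change. From CD31+CD34+ to CD43+ cells it was 0, with 1 (HOXB6) at a pseudocount of 0.1 and 6 without a minimum change, and between 0 and 1 on leaving out single libraries (1 without CD43+ replicate 2). In the other comparisons leaving out a library gave 3, 8 and 8. With the compared populations alone, 2 members passed the filter for APLNR+ against H1 and 7 for CD43+ against H1, and those 2 and 7 were called. The replicate block gave 3, 8, 0 and 8 genes in the order of the comparisons and so changed no call. In the comparisons that did not meet the rule for pairing, it is given for completeness. HOXB9 from CD31+CD34+ to CD43+ cells lay between -0.10 (without CD31+CD34+ replicate 1) and 0.32 on leaving out single libraries, and no other HOX gene changed sign under any alternative run. HOXB7 was called from H1 to APLNR+ cells with protein-coding scaling (1.09), and HOXB6 from APLNR+ to CD31+CD34+ cells was not (1.00, just under the limit). The cause was not tested. Protein-coding scaling, and leaving out replicate 1 of both CD31+CD34+ and CD43+ cells, were chosen after seeing the data. At the step from APLNR+ to CD31+CD34+ cells, upper-quartile scaling moved the median change of all genes by 0.16 and protein-coding scaling by -0.19, and 2635 and 1354 genes were called higher and 1964 and 3312 lower, against 1861 and 2539 unscaled. From H1 to APLNR+ cells protein-coding scaling gave 1664 higher and 764 lower calls (1232 and 1131 unscaled), and from H1 to CD43+ cells upper-quartile scaling gave 2782 and 2736 (2163 and 3338 unscaled). Precision is limited by 3 libraries per population and by low levels at unknown depth.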
